A study of Mus musculus with 3 samples.

Results

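The cells described here are 382 ectoderm cells of the mouse forelimb bud in which no transcript of En1, Wnt7a or Fgf8 was detected. They were chosen from the authors' ectoderm cluster by 2 rules: at least 5000 unique molecular identifiers (UMIs, counted molecules) in the cell, and a count of 0 for each of these 3 genes. They are 382 of 1943 ectoderm cells of that depth, of 3288 ectoderm cells at any depth and of 43950 cells in the series. The series sampled wild-type forelimbs by droplet single-cell RNA sequencing in 3 libraries, 1 for each group. Libraries B6_E9.5 and B6_E10.5 are of strain c57bl6.J, taken at embryonic days E9.5 and E10.5, and library 129_E9.5 is of strain 129S6.sv, taken at E9.5. Where 3 values follow each other without a library, they are in that order. All 3 carry the same genotype label, and the labels give no number of embryos for a library. Because the rule read the counts of En1, Wnt7a and Fgf8, no test is given for them, and genes that follow them in expression were bound to separate with the choice.

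The surface ectoderm of a limb bud is patterned into territories that are known by these genes. Fgf8 marks the apical ectodermal ridge, the rim of thickened epithelium that keeps the underlying mesenchyme growing. Wnt7a marks the dorsal face and instructs dorsal fates in the mesenchyme below, and En1, a homeobox repressor, marks the ventral face and keeps Wnt7a off there. The ectoderm also continues onto the body wall (flank), and later in this period a flat outer layer, the periderm, forms over the basal layer; it is known for simple keratins, claudins and the transcription factor Grhl3.

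The 4 ectodermal markers were present. Of the 382 cells, 350 (91.6%) held at least 2 of Epcam, Perp, Krt14 and Sfn, and 3 held none. Epcam, an epithelial adhesion molecule, was detected in 67 of 78 cells of B6_E9.5, in 169 of 204 of B6_E10.5 and in 89 of 100 of 129_E9.5. Perp, a desmosome-associated membrane protein, was detected in 61, 188 and 88 of them. Krt14, the keratin of basal keratinocytes, was detected in 12, 124 and 35 cells, so it marked most cells only in the E10.5 library. Sfn, an adaptor of the 14-3-3 family made in stratifying epithelia, was detected in 48, 146 and 65.

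Promoters of 3 genes that were higher in these cells are shown because they carry the short motifs searched for epidermal factors, with the motif in capitals. They are the 250 bases before the RefSeq start, 5′ to 3′ on the gene's strand, build GRCm38.p6. The AP-2 motif GCCNNNGGC, bound by factors such as the product of Tfap2b, lies once in the promoter of Gjb2 (chromosome 14, 57104703 to 57104952, minus strand) and at 2 places in that of Krt7 (chromosome 15, 101412153 to 101412402, plus strand). The Grainyhead-like motif AACCGGTT, bound by factors such as the product of Grhl3, lies in the promoter of Mt2 (chromosome 8, 94172368 to 94172617, plus strand).
Gjb2: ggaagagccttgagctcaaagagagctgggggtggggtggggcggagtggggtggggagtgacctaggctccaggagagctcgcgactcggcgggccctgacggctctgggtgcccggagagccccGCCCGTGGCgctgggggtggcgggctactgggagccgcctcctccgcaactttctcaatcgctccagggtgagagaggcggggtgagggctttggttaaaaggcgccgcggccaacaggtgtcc
Krt7: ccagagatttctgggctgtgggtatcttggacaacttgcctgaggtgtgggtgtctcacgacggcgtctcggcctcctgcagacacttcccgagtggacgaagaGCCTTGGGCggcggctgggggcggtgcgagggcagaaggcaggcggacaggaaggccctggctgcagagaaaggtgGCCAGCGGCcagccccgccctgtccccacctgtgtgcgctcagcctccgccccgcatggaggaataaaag
Mt2: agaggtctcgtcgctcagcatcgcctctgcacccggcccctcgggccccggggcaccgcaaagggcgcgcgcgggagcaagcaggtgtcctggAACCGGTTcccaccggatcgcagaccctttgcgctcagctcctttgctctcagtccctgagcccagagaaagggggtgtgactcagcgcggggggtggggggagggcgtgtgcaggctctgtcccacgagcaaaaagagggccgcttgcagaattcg
Both motifs read the same on either strand. Of the 30 genes named as higher, 18 had a promoter in the RefSeq table, and 5 of them held the AP-2 motif (Gjb2, Pmp22, Irx2, Krt18 and Krt7). Among all tested genes with a promoter 24.5% held it, and among all 32851 promoters of that length 13.7%. Mt2 alone held the Grainyhead-like motif, which 0.282% of tested genes with a promoter held. These matches describe letters and not bound sites.

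The share of ectoderm cells without the 3 genes was 10.1% in B6_E9.5 (78 of 773 cells, Clopper-Pearson 95% interval 8.06 to 12.4%). It was 33.8% in B6_E10.5 (204 of 604, 30.01 to 37.7%) and 17.7% in 129_E9.5 (100 of 566, 14.6 to 21.1%). B6_E10.5 was highest, and the 3 intervals did not overlap. They cover counting error only, and with 1 library for each stage and strain there was no test. Depth moved with the share: the median was 9371.5 UMIs in these cells and 13024 in the other ectoderm cells of B6_E9.5, 6780 and 8171 at E10.5, and 6292.5 and 6608 in 129_E9.5.

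Within B6_E9.5 the share was 30.2% among cells of 5000 to under 6000 UMIs and 4.96% among cells of 12000 and over. The same bins gave 44.4% and 24.6% at E10.5, and 19.7% and 10.53% in 129_E9.5, where the deepest bin held 19 cells. When every ectoderm cell was thinned to 5000 UMIs, 599 cells had none of the 3 genes, and 217 of these had at least 1 such UMI before thinning. The shares were then 23.2% (20.2 to 26.3%) in B6_E9.5, 46.0% (42.0 to 50.1%) at E10.5 and 25.1% (21.6 to 28.9%) in 129_E9.5. B6_E10.5 stayed highest at equal depth, while the intervals of both E9.5 libraries overlapped. A count of 0 therefore does not show that a gene was silent in a cell. Cells with exactly 1 UMI of the 3 genes together, just outside the rule, numbered 98, 143 and 111 in the order of the libraries above; the shallowest cells inside the depth rule had 5002, 5064 and 5016 UMIs, and the deepest such cells outside it 4951, 4957 and 4983.

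**Figure D1:**
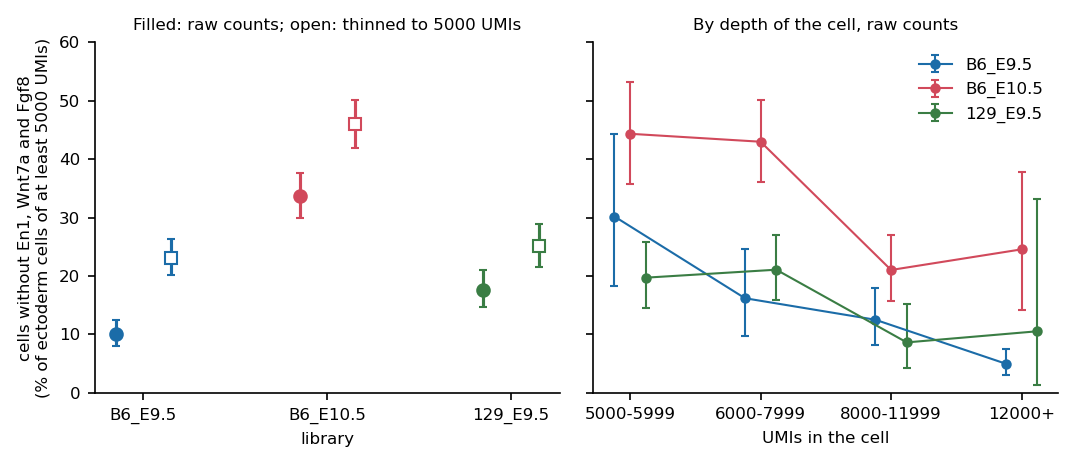
Share of ectoderm cells of at least 5000 UMIs without En1, Wnt7a and Fgf8. Left, each library on raw counts (filled) and after thinning each cell to 5000 UMIs (open); right, raw counts by depth of the cell; bars are Clopper-Pearson 95% intervals. B6_E10.5 was highest on both counts (33.8% and 46.0%).

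UMIs were next summed over these cells and over the other ectoderm cells of each library, giving 6 sums for 3 libraries, and levels are given as CPM, the UMIs of a gene after scaling each sum to a total of 1000000. The test is edgeR's quasi-likelihood test with library as a block and Benjamini-Hochberg adjustment over 10241 genes. It asks for differences shared by libraries that differ in strain and stage. Each p-value sets the class difference against a spread that edgeR estimates from the 3 libraries and draws toward a trend over all genes tested. With 6 sums, a small p-value therefore rests on that shared trend as well as on the gene's own spread. Values after ± are standard errors (SE) calculated back from the log2 difference and the test statistic. Differences in level between libraries are taken up by the block. Adjusted p under 0.05 was reached by 141 higher genes (1.38%) and 233 lower genes (2.28%). The calls leaned on the E10.5 library, since without it 56 genes were higher and 91 lower, and on the tool, since DESeq2 called 34 and 45. Genes of simple and periderm epithelium, of gap junctions and of Notch signalling were among the higher genes. Genes of the apical ridge, of BMP and WNT signalling and of mitosis were among the lower. All Fgf8 cells lay in the other ectoderm, so the rule also favoured genes low in Fgf8 cells to come out higher. Values without the Fgf8 cells are given beside some lists and in a second comparison below.

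Keratins, the intermediate filament proteins of epithelia, were higher: 6 of 10 tested passed the test as higher and 0 as lower. Their median log2 difference was 0.63, beside -0.0036 over all genes tested. Against cells with En1 or Wnt7a and no Fgf8, 5 of 10 were higher and 0 lower, with a median of 0.38. Krt8, which pairs with Krt18 in simple epithelia, stood at 220 CPM in these cells and 107 in the other ectoderm of B6_E9.5, at 193 and 82.1 at E10.5, and at 304 and 179 in 129_E9.5. Its level was higher in all 3 libraries, by 0.99 ± 0.09 on the log2 scale (SE; edgeR adjusted p = 2.7e-13). Krt18 stood at 279 and 188, 264 and 157, and 424 and 322 CPM, a smaller difference (0.55 ± 0.08, edgeR adjusted p = 3.9e-07). Krt8 and Krt18 are neighbours on chromosome 15, at 101996698 to 102004482 and 102028180 to 102032027 in the GENCODE M21 annotation.

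Krt19, a small acidic keratin of simple epithelia and periderm, stood at 148 and 71.8 CPM in B6_E9.5, 89.4 and 31.9 at E10.5, and 117 and 72.4 in 129_E9.5 (log2 difference 1.05 ± 0.12, edgeR adjusted p = 4.8e-10). Krt7, another simple-epithelial keratin, stood at 114 and 43.2, 114 and 82.9, and 193 and 84.3 CPM (0.96 ± 0.12, edgeR adjusted p = 5.5e-09). After thinning to 5000 UMIs, Krt19 was detected in 29.5% of these cells and 24.6% of the other ectoderm cells of B6_E9.5, in 58 of 204 and 42 of 400 cells at E10.5, and in 38.0% and 24.9% in 129_E9.5. In mesenchymal cells, which should lack it, the thinned share was 0.6%, 0% (0 of 1000 cells, which allows up to 0.3%) and 0.3%. Before thinning the ectodermal shares were 44.9% and 45.6%, 35.8% and 17.3%, and 42.0% and 32.8%.

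Both keratins of the basal layer that passed moved mainly in the E10.5 library. Krt15 stood at 73.6 CPM against 16.5 in B6_E10.5, but at 6.26 against 3.83 in B6_E9.5 (5 UMIs in these cells) and 8.98 against 3.27 in 129_E9.5 (6 UMIs). Its overall log2 difference was 1.85 ± 0.24 (edgeR adjusted p = 4.2e-08), and without B6_E10.5 the adjusted p was 0.57. Krt14 stood at 216 against 113 CPM at E10.5 and 77.8 against 48.4 in 129_E9.5, and was lower in B6_E9.5 (18.8 against 22.6). Its call (0.71 ± 0.13, edgeR adjusted p = 4.1e-05) was lost without B6_E10.5 (adjusted p = 0.64), and among cells of at least 10000 UMIs its log2 difference was -0.39. Against cells with En1 or Wnt7a and no Fgf8, Krt14 was not called (0.41 ± 0.12, edgeR adjusted p = 0.059).

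**Figure D2:**
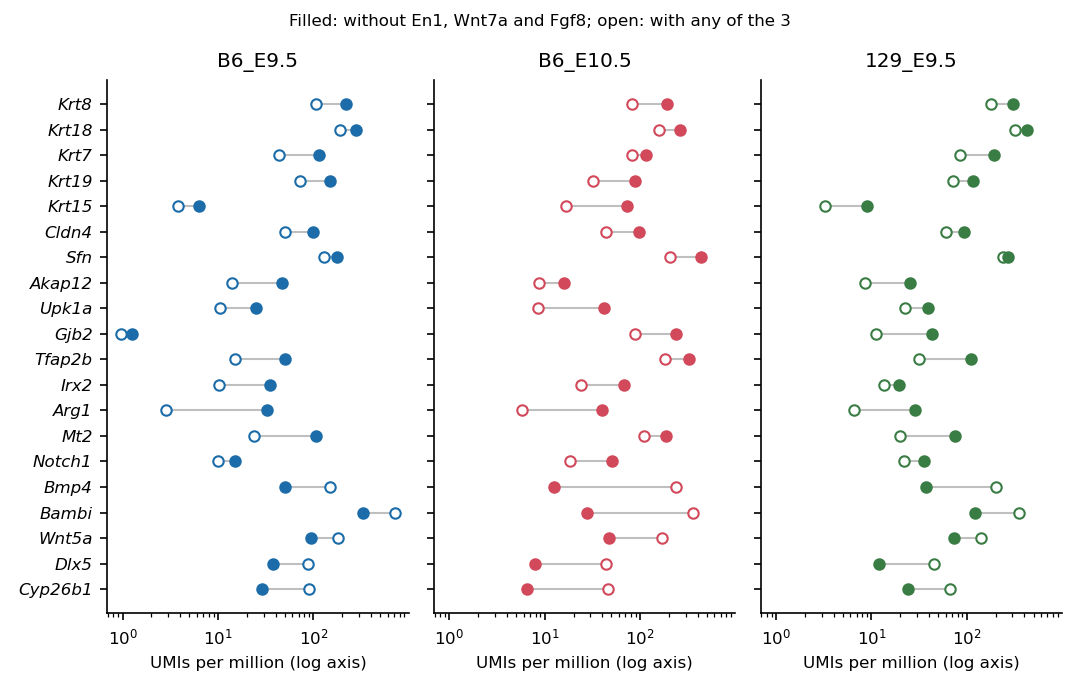
Levels of 20 genes in CPM (log axis) in the cells without En1, Wnt7a and Fgf8 (filled) and in the ectoderm cells with any of them (open), 1 panel for each library. Krt8 to Notch1 were higher in the filled sums and Bmp4 to Cyp26b1 lower in each panel.

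Of 13 tested members of the periderm list, 7 were higher and 0 lower, with a median log2 difference of 0.92. With the Fgf8 cells left out of the other ectoderm, 5 of 12 were higher and 0 lower, and the median was 0.51. Summed over the 16 members with a row in the matrix, the list stood at 743 against 427 CPM in B6_E9.5, 1086 against 497 at E10.5 and 952 against 702 in 129_E9.5. Cldn4, a tight junction claudin, stood at 99.0 against 49.97, 97.9 against 43.5 and 94.3 against 60.3 CPM (log2 difference 0.94 ± 0.12, edgeR adjusted p = 2.5e-08). Sfn stood at 178 against 128, 438 against 206 and 269 against 240 CPM (0.63 ± 0.09, edgeR adjusted p = 1.3e-06). The difference of Sfn was thus widest at E10.5, and without that library its adjusted p was 0.20.

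Grhl3, a Grainyhead-like factor needed for the skin barrier, was higher at low levels: 10.0 against 6.70, 26.3 against 6.38 and 7.48 against 4.45 CPM (log2 difference 1.34 ± 0.31, edgeR adjusted p = 0.0029). Cldn3, another claudin, was higher in both B6 libraries (76.4 against 33.2 and 69.0 against 15.7 CPM) and not in 129_E9.5 (106 against 109); its adjusted p was 8.9e-05 with all libraries in edgeR and 0.31 without B6_E10.5. Upk1a, a tetraspanin of the uroplakin family, was higher in every library, at 25.1 against 10.4, 42.0 against 8.41 and 38.9 against 22.6 CPM (1.45 ± 0.22, edgeR adjusted p = 1.0e-06). Nectin4, a cell adhesion molecule of the nectin family, stood at 51.9 against 12.8 CPM at E10.5 and differed little in B6_E9.5 (3.76 against 3.08) and 129_E9.5 (21.0 against 18.4); its edgeR adjusted p of 3.6e-04 became 0.95 without B6_E10.5.

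Arg1, which encodes the arginase that splits arginine into ornithine and urea, had the largest increase among the named genes. It stood at 32.6 against 2.87 CPM in B6_E9.5, 40.1 against 5.80 at E10.5 and 28.4 against 6.53 in 129_E9.5. All 3 sums of these cells lay above all 3 of the other ectoderm, and the log2 difference was 2.82 ± 0.27 (edgeR adjusted p = 5.7e-13). Arg1 (chromosome 10, 24915221 to 24927484, minus strand) was carried by few cells: 9 of 78, 17 of 204 and 12 of 100 held its 26, 61 and 19 UMIs, and a single cell held 17 of the 61. After thinning, 5.13%, 5.88% and 7% of these cells had an Arg1 UMI, beside 1.44%, 2% and 3.004% of the other ectoderm and 3.1%, 0.1% and 2.4% of mesenchymal cells. Before thinning the first 2 sets of shares were 11.5%, 8.33% and 12.0%, and 2.73%, 3% and 3.43%.

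Of 23 tested junction genes, 5 were higher (Cldn3, Cldn4, Cldn6, Gjb2 and Gjb6) and 2 lower (Epcam and Gja1). Gjb2, a gap junction connexin known from skin and the inner ear, stood at 237 against 87.6 CPM at E10.5 and 43.4 against 11.3 in 129_E9.5, and was near 0 in both classes of B6_E9.5 (1 and 9 UMIs). Its log2 difference was 1.496 ± 0.14 (edgeR adjusted p = 1.3e-12). Gjb6, the connexin gene next in the same family, stood at 78.8 against 23.5 and 14.97 against 2.37 CPM in these libraries and had no UMI in either class of B6_E9.5 (1.85 ± 0.25, edgeR adjusted p = 5.3e-08). Gja1, the widely made connexin of embryonic epithelia, was lower: 326 against 483, 168 against 302 and 229 against 327 CPM (-0.67 ± 0.08, edgeR adjusted p = 1.4e-09). Epcam itself was slightly lower in every library, at 351 against 429, 320 against 405 and 380 against 395 CPM (-0.26 ± 0.07, edgeR adjusted p = 0.022), a call that was lost without B6_E9.5 (adjusted p = 0.23) or B6_E10.5 (0.24).

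Against the whole ectoderm, the list for trunk and flank surface ectoderm did not move one way. Of 13 tested members 2 were higher (Tfap2b and Wnt7b) and 2 lower (Bmp2 and Tbx3), with a median log2 difference of 0.20. The summed list stood at 1172 against 1218, 1514 against 1329 and 1094 against 1089 CPM. With the Fgf8 cells left out of the other ectoderm, 0 of 12 tested were lower and Tfap2b alone was higher. Tfap2b, an AP-2 transcription factor of ectoderm and neural crest, was higher in all 3 libraries: 50.1 against 14.99, 324 against 184 and 109 against 31.8 CPM (1.14 ± 0.12, edgeR adjusted p = 7.2e-11). Wnt7b, a WNT ligand of surface ectoderm, stood at 25.1 against 13.4, 149 against 123 and 68.9 against 28.2 CPM (0.55 ± 0.14, edgeR adjusted p = 0.0074), and without 129_E9.5 its adjusted p was 0.26. Irx2, an Iroquois homeobox factor outside that list, stood at 35.1 against 10.1, 67.0 against 24.1 and 19.5 against 13.7 CPM (1.39 ± 0.19, edgeR adjusted p = 1.2e-07). Among Hox genes, which mark position along the body axis, 0 of 16 tested members of paralog groups 1 to 8 were called, and Hoxc9 was the 1 of 9 called in groups 9 to 13, as lower.

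Of 10 tested genes of metallothioneins and lipid handling 2 were higher and 1, the apolipoprotein gene Apoe, lower, with a median log2 difference of -0.057. The 2 were Mt1 and Mt2, which encode small proteins that bind zinc and copper. Mt2 stood at 106 against 23.9, 188 against 110 and 74.8 against 19.9 CPM (1.33 ± 0.14, edgeR adjusted p = 4.9e-11), and Mt1 at 179 against 55.4, 232 against 136 and 126 against 56.7 (1.14 ± 0.11, edgeR adjusted p = 1.8e-12). In the Notch list 3 of 11 tested genes were higher and 0 lower. The receptor Notch1 stood at 15.03 against 9.99, 51.2 against 18.3 and 35.9 against 21.7 CPM (1.07 ± 0.20, edgeR adjusted p = 1.1e-04), with an adjusted p of 0.41 without B6_E10.5. The target genes Hes1 (188 against 89.2, 168 against 152 and 112 against 76.0 CPM) and Hey1 (23.8 against 4.68, 8.54 against 5.51 and 7.48 against 4.45) also passed, and both lost the call without B6_E9.5 (edgeR adjusted p 0.30 and 0.68). Against cells with En1 or Wnt7a and no Fgf8, Notch1 alone of 10 tested Notch genes was called. The ratios there were 1.36, 0.85 and 1.27 for Hes1 and 3.72, 1.93 and 1.14 for Hey1.

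The ridge list was lower: 0 of 16 tested members were higher and 12 lower. For members that follow Fgf8 the rule fixed this, and their values describe what the rule separated. Bhlha9, also among the 12, stood further below cells with En1 or Wnt7a and no Fgf8 (ratios 0.53, 0.52 and 0.64) than below all other ectoderm (0.82, 0.73 and 0.96). Rspo2, an R-spondin that amplifies WNT signals, had 0, 0 and 3 UMIs in these cells beside 237, 186 and 207 in the other ectoderm; set at the 3 UMIs that a count of 0 allows in each library, it was at least 6.71-fold lower in B6_E9.5 and at least 27.4-fold lower in B6_E10.5. Fgf4, a ridge growth factor, had 0 UMIs in these cells of every library, beside 88 UMIs (25.5 CPM) in the other ectoderm of B6_E10.5 and 21 (6.23 CPM) in 129_E9.5. Dlx5, a homeobox gene of the ridge, stood at 37.6 against 87.2, 7.88 against 44.4 and 12.0 against 44.8 CPM.

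Signalling genes known from the ridge were lower with it. The other ectoderm held every Fgf8 cell and these cells held none. Genes made in the ridge were thus bound to be lower, here and in the WNT, FGF and retinoic acid lists. Their counts and differences describe the rule. In the BMP list 5 of 16 tested genes were lower and 1 higher. Bmp4, a ligand of the ridge and ventral ectoderm, stood at 50.1 against 147, 12.5 against 235 and 37.4 against 202 CPM (log2 difference -2.78 ± 0.17). The pseudoreceptor Bambi stood at 334 against 715, 27.6 against 356 and 121 against 352 (-1.84 ± 0.14). Against cells with En1 or Wnt7a and no Fgf8, the ratios were 1.54, 0.66 and 1.09 for Bmp4 and 0.96, 0.66 and 0.88 for Bambi. The higher gene was Sostdc1, a secreted antagonist of BMP and WNT ligands, at 66.4 against 26.3, 151 against 88.4 and 70.4 against 41.6 CPM (0.89 ± 0.12, edgeR adjusted p = 1.9e-07).

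Of 21 tested WNT response and antagonist genes 10 were lower, among them Apcdd1, Notum, Tcf7 and Axin2, and 1 was higher. That gene was Sfrp1, a secreted frizzled-related antagonist, at 31.3 against 15.6, 46.6 against 29.3 and 100.3 against 38.3 CPM (1.01 ± 0.16, edgeR adjusted p = 3.6e-06). Wnt5a, a ligand of the ridge and distal bud, stood at 93.9 against 181, 47.3 against 171 and 73.3 against 140 CPM (log2 difference -1.30 ± 0.12). In the FGF list 4 of 16 were lower (Etv4, Fgf4, Fgf9 and Spry1) and 0 higher. In B6_E9.5, however, Fgf9 was higher in these cells (10.0 against 5.32 CPM). The retinoic acid list was split, with Crabp2 and Rarb higher and Crabp1 and Cyp26b1 lower of 10 tested. Crabp1 too was higher in these cells of B6_E9.5 (203 against 175 CPM). Cyp26b1, which breaks down retinoic acid, stood at 28.8 against 89.9, 6.57 against 45.5 and 23.9 against 67.1 CPM (log2 difference -1.92 ± 0.19).

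Genes of G2 and M phase were lower in 13 of 17 tested members and higher in 0, with a median log2 difference of -0.42. Ube2c, a ubiquitin-conjugating enzyme of mitotic exit, stood at 158 against 288, 224 against 429 and 277 against 351 CPM (-0.75 ± 0.08, edgeR adjusted p = 3.8e-10). Ccnb1, the mitotic cyclin, stood at 103 against 156, 132 against 197 and 211 against 271 (-0.52 ± 0.09, edgeR adjusted p = 2.9e-05). The cells without the 3 genes also held fewer UMIs. On cells thinned to 5000 UMIs, with the classes as they were, 8 of 17 were lower and the median was -0.44. When the classes too were set again on the thinned cells, 3 were lower and the median was -0.22. In the S phase list 2 of 18 were higher (Mcm6 and Ung) and 0 lower, and none of the 20 tested genes of basement membrane and integrins was called.

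The second comparison left out the cells with an Fgf8 UMI. It set the same 382 cells against 820 cells with En1 or Wnt7a and no Fgf8, here called the limb faces. Ridge cells may remain among them, since a count of 0 does not show that Fgf8 was silent. Cluster 0, described below and led by ridge genes, held 43 cells with En1 alone and 5 with Wnt7a alone, beside 15 of the 382. Of 9676 genes tested, 65 were higher (0.672%) and 47 lower (0.486%) at an edgeR adjusted p under 0.05. The comparison shares its 382 cells with the first, so values are given side by side and no agreement is read from them. Without B6_E10.5, 20 were higher and 11 lower. When classes were set on thinned cells, 11 were higher and 6 lower, and DESeq2 called 2 and 1.

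Arg1 was again the largest of the named increases, at 32.6 against 4.43, 40.1 against 7.08 and 28.4 against 9.11 CPM (2.37 ± 0.26, edgeR adjusted p = 3.2e-10). With classes on thinned cells its adjusted p was 0.33. Krt8 stood at 220 against 138, 193 against 97.9 and 304 against 205 CPM (0.74 ± 0.09, edgeR adjusted p = 2.0e-09). Of 12 tested periderm members 5 were higher and 0 lower, among them Sfn, Cldn4, Krt19 and Krt7. Their log2 differences were 0.64 ± 0.08, 0.69 ± 0.12, 0.57 ± 0.11 and 0.42 ± 0.11, and of these 4 none but Krt7 kept its call without B6_E10.5; Krt7 lost its call without either of the other libraries (edgeR adjusted p 0.32 in each case).

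Krt15 (6.26 against 6.16, 73.6 against 23.5 and 8.98 against 5.06 CPM), Irx2 (35.1 against 13.3, 67.0 against 28.8 and 19.5 against 15.7) and Notch1 (15.03 against 12.1, 51.2 against 18.2 and 35.9 against 17.7) also passed. In each the widest gap in CPM was in B6_E10.5. Nrarp, a feedback inhibitor induced by Notch, stood at 20.0 against 11.8, 86.7 against 49.1 and 38.9 against 19.2 CPM (0.85 ± 0.17, edgeR adjusted p = 9.7e-04). Itm2a, a type II membrane protein, stood at 38.8 against 18.0, 89.4 against 48.7 and 44.9 against 26.3 (0.91 ± 0.16, edgeR adjusted p = 8.6e-05). Without B6_E10.5 the adjusted p of Nrarp was 0.31 and that of Itm2a 0.057.

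Bhlha9, a basic helix-loop-helix factor of limb ectoderm, was lower than in the limb faces, at 152 against 284, 240 against 463 and 272 against 425 CPM (-0.85 ± 0.07, edgeR adjusted p = 2.2e-14). The gap was wider than against the whole ectoderm, with ratios of 0.53, 0.52 and 0.64 here and 0.82, 0.73 and 0.96 there. Hoxc9 stood at 31.3 against 69.7, 48.0 against 91.7 and 59.9 against 82.5 CPM (-0.85 ± 0.14, edgeR adjusted p = 3.4e-05). Spry1, a feedback inhibitor of FGF signalling, stood at 68.9 against 124, 48.0 against 77.9 and 23.9 against 51.6 (-0.82 ± 0.13, edgeR adjusted p = 3.7e-05). Car2, a carbonic anhydrase, stood at 23.8 against 49.3, 3.29 against 6.64 and 13.5 against 36.9 (-1.16 ± 0.25, edgeR adjusted p = 0.0036). Each was lower in 3 of 3 libraries. Of the ridge list, Bhlha9 and Dlx1 were the 2 of 11 tested members called. Msx1, a BMP-responsive homeobox gene, was lower against the whole ectoderm and higher against the limb faces (288 against 212, 46.0 against 33.2 and 120 against 89.5 CPM), and with classes on thinned cells the latter difference was -0.028 on the log2 scale. Msx1 is also a member of the limb mesenchyme list, which summed to 412 against 350.3, 298 against 187 and 259 against 179 CPM, with a median log2 difference of 0.52 and Msx1 the 1 of 10 called; the part of mesenchyme RNA in the differences from the limb faces was not tested. Of the BMP list 0 of 15 tested members were lower and 2 higher (Msx1 and Sostdc1), of the WNT response list 1 of 18 was lower (Fzd1) and 1 higher (Sfrp1), and of the flank list 0 of 12 were lower and 1 higher (Tfap2b). Genes of G2 and M phase were lower in 8 of 17 members here and in 0 with classes on thinned cells.

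Set beside each territory, the levels of the genes given here did not follow any 1 of them throughout. Krt8 stood at 220, 134, 143 and 83.6 CPM in B6_E9.5 for cells with none of the genes, with Wnt7a alone, with En1 alone and with Fgf8; at 193, 127, 80.8 and 52.1 in B6_E10.5; and at 304, 200, 209 and 142 in 129_E9.5. The cells with none were highest and the Fgf8 cells lowest in each library. Mt2 followed the dorsal side, at 188 and 187 CPM in cells with none and with Wnt7a alone of B6_E10.5, and 126 with En1 alone; in B6_E9.5 it stood at 106, 67.3 and 12.0. Gjb2 also lay nearest the Wnt7a cells, at 237, 194, 73.9 and 31.9 CPM at E10.5 and 43.4, 35.6, 3.11 and 0 in 129_E9.5. Msx2 lay between the faces, at 276 CPM with none, 77.0 with Wnt7a and 406 with En1 in B6_E9.5, 78.2, 55.3 and 128 at E10.5, and 59.9, 24.4 and 180 in 129_E9.5. These orders are a description with no test.

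**Figure D3:**
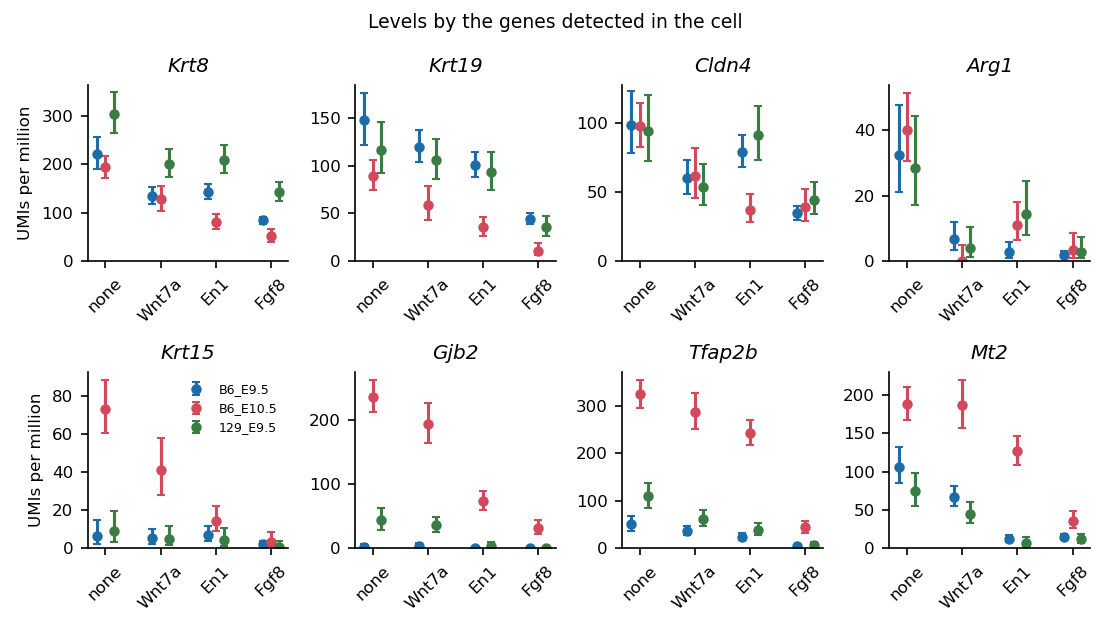
Levels of 8 genes in CPM for ectoderm cells with none of the 3 genes, with Wnt7a alone, with En1 alone and with Fgf8, by library; bars are exact Poisson 95% intervals of the summed counts. Krt8 and Krt19 are highest in the cells with none in each library, and Arg1 in these cells lies above 28 CPM throughout.

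To see which parts of the ectoderm held these cells, all 1943 cells were clustered without the 3 genes and with each gene centred for each library. The 12 clusters are numbered and called by their leading genes. Shares in them are a description, since every other gene took part in the clustering. The highest share was in a cluster of 22 cells led by Rhov, Lypd3 and Gabrp (cluster 11), where 15 (68.2%, 45.1 to 86.1%) had none of the 3 genes. Its 10 leading genes held 3 markers of the periderm list, among them Lypd3 and Gabrp, so it is called periderm-like. With clustering at resolution 0.3 the highest share in a cluster was 39.3%, and with no centring 40.8%. The periderm-like cluster came almost wholly from B6_E10.5 (19 cells, 14 of them without the 3 genes) with 3 cells from 129_E9.5 and 0 from B6_E9.5. It may therefore be particular to that library.

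The 14 periderm-like cells of B6_E10.5, of 204 such cells there, carried 55 of the 79 Nectin4 UMIs, 41 of 61 of Arg1 (67.2%), 361 of 667 of Sfn (54.1%) and 145 of 294 of Krt8 (49.3%). With the cluster left out, an alternative added after the data were seen, 96 genes were higher and 187 lower against the whole ectoderm, and 3 of 13 periderm members were higher. Arg1, Krt8, Krt19, Krt7, Cldn4 and Upk1a kept their calls, and Nectin4 (edgeR adjusted p = 0.30), Sfn (0.095), Cldn3 (0.073) and Grhl3 did not. Against the limb faces, 40 genes were then higher and 38 lower.

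The largest number lay in cluster 4, led by Krt15, Gjb6, Gjb2, Cxcl14 and Tfap2b: 92 of its 189 cells (48.7%, 41.4 to 56.0%) had none of the 3 genes. It has no name here, since under 3 markers of any list were among its leading genes. Among its other cells, 79 had En1 without Wnt7a and Fgf8, 12 had Wnt7a without En1 and Fgf8, and 5 had Fgf8. The share was 74 of 111 cells (66.7%) in B6_E10.5, 8 of 31 (25.8%) in B6_E9.5 and 10 of 47 (21.3%) in 129_E9.5. These 74 cells carried 89 of the 112 Krt15 UMIs of B6_E10.5 (79.5%), 76 of 120 of Gjb6 (63.3%), 180 of 361 of Gjb2 (49.9%) and 232 of 493 of Tfap2b (47.1%). With clusters 4 and 11 both left out, also added after the data were seen, 93 genes were higher and 189 lower against the whole ectoderm, and Krt15 lost its call (edgeR adjusted p = 0.11). Against the limb faces 9 were higher and 8 lower, and 0 of 12 periderm members were called.

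The other cells were spread. Cluster 1, led by Ngfr, Meox1 and Emx2 and rich in Wnt7a cells (187 of 313), held 40 of the 100 cells of 129_E9.5, 22 of the 78 of B6_E9.5 and 2 of the 204 of B6_E10.5. Cluster 8, led by Cxcl14 and Cldn3, held 49 of 246 (19.9%); Tfap2b, Gata3 and Wnt4 of the flank list were among its leading genes, yet 164 of its cells had En1 without Wnt7a and Fgf8, and it was left unnamed. Cluster 7, led by Hoxc10 and Gpx2 and present in B6_E10.5 alone, held 41 of 162 (25.3%). The clusters led by ridge genes had the lowest shares: 15 of 351 (4.27%) in cluster 0 and 0 of 88 in cluster 9, which allows a share of up to 3.41%.

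Cluster 6 was led by Mab21l2, Shox2 and Prrx1, genes of limb mesenchyme, and 34 of its 100 cells had none of the 3 genes; 79 of the 100 held at least 2 mesenchyme markers. Over all clusters, 47 of the 382 cells did: 11.5% in B6_E9.5, 15.2% at E10.5 and 7% in 129_E9.5, beside 10.6%, 13.5% and 4.51% of the other ectoderm. Without such cells 118 genes were higher and 188 lower against the whole ectoderm, and 7 of 13 periderm members were still higher.

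**Figure D4:**
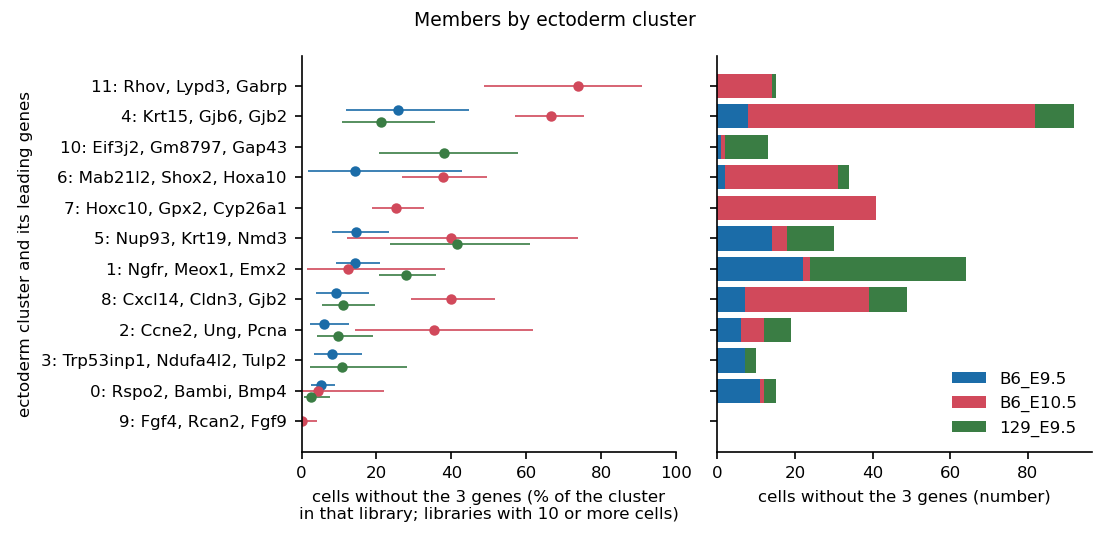
Ectoderm clusters in order of their share of cells without the 3 genes, labelled by 3 leading genes. Left, share by library with Clopper-Pearson 95% intervals, for libraries with at least 10 cells in the cluster; right, number of these cells by library. Cluster 4 holds most (92) and cluster 9 none.

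Markers of other cell types were at or near 0 for some types and moved with the cells for others, and their part in the results was not tested. The gut endoderm list, of which 3 of 12 members had a row, summed to 0 to 2.63 CPM in these cells, the visceral endoderm and liver list to 0 to 1.497, and the macrophage list to 2.51 to 4.49, with 9 of its 11 genes at 0. Of 10 endothelial genes Tie1 and Esam were at 0, and the list summed to 27.6 to 37.4 CPM beside 27.3 to 34.6 in the other ectoderm. Erythroid genes summed to 1121, 353 and 458 CPM beside 998, 261 and 457. Of the placode list 0 of 6 tested genes were called, and Pax2, Sox3 and Neurog1 were at 0. Foxd3 and Fabp7 were at 0 in the neural crest list, whose 1 call of 3 tested was Tfap2b, and the list summed to 81.4 against 35.4, 350.2 against 202 and 133 against 45.4 CPM. The neuron and neural tube list summed to 71.4 against 110, 46.6 against 116 and 55.4 against 133 CPM, with Tubb3, a neuronal tubulin, the 1 lower of 3 tested and Stmn2, Neurod1 and Pax6 at 0. The mesothelium list summed to 58.9 against 29.3, 42.7 against 38.6 and 34.4 against 17.8 CPM, with Podxl higher of 3 tested and Tcf21 at 0. The somite list summed to 73.9 against 38.1, 33.5 against 27.0 and 92.8 against 62.0 CPM, with Meox1 higher of 2 tested and Uncx and Foxc2 at 0. In both E9.5 libraries its sum in these cells was Meox1 alone, also a leading gene of cluster 1. Beside cells with En1 or Wnt7a and no Fgf8 the list summed to 73.9 against 73.9, 33.5 against 31.0 and 92.8 against 101 CPM. In the mesenchyme list Twist1 was higher and Msx1 lower of 10 tested. Of these cells, 13 shared a barcode with a cell of another library, and no barcode occurred in more than 1 of them.

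Between stages, B6_E10.5 was set against B6_E9.5 within these cells. With 1 library for each stage there was no test, and the ratios carry exact conditional binomial 95% intervals that cover counting error only. Counting the 3409 genes that reached 50 CPM and 20 UMIs in whichever library was higher, 100 (2.93%) were at least 2-fold higher at E10.5 and 107 (3.14%) at least 2-fold lower. The higher genes included 4 of 8 measured members of the basal epidermis list (Krt5, Krt14, Krt15 and Dst), 4 of 7 of the flank list (Wnt3, Wnt4, Wnt7b and Tfap2b) and 4 of 8 epidermal transcription factors (Tfap2b, Bcl11a, Bcl11b and Barx2). The lower genes included 6 of 13 oncofetal and imprinted genes, among them Lin28a, Lin28b and Dlk1, and 5 of 10 BMP genes. Erythroid genes, markers of blood cells, were lower in 5 of 5 measured, with a median log2 ratio of -1.504, and their part in the stage differences was not tested.

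The cells compared lay in different clusters: cluster 4 held 36.3% of them at E10.5 and 10.3% at E9.5, cluster 7 held 20.1% and 0%, cluster 11 held 6.86% and 0%, and cluster 1 held 0.98% and 28.2%. Gjb2 went from 1.25 to 237 CPM, but with a single UMI at E9.5 the interval of its ratio ran from 33.8 to 7500. Krt14 went from 18.8 to 216 CPM (ratio 11.5, 6.85 to 20.7) and in the other ectoderm from 22.6 to 113. Krt15 went from 6.26 to 73.6 CPM (ratio 11.7, 4.89 to 36.9), and in the other ectoderm from 3.83 to 16.5. Barx2, a homeobox gene of epithelia, went from 6.26 to 61.1 CPM (ratio 9.76, 4.03 to 30.8) and in the other ectoderm from 4.57 to 34.2. Gjb6 and Bcl11a, a zinc finger factor of epidermis, had 0 UMIs at E9.5 and stood at 78.8 and 69.0 CPM at E10.5, at least 21.0-fold and 18.4-fold higher against 3 UMIs. In the other ectoderm Bcl11a went from 7.02 to 68.4 CPM.

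Bambi went from 334 CPM at E9.5 to 27.6 at E10.5 in these cells (ratio 0.083, 0.058 to 0.115) and from 715 to 356 in the other ectoderm. Sct, the secretin gene, went from 208 to 17.1 CPM and in the other ectoderm from 319 to 88.7. Prtg, a neural cell adhesion protein of early embryos, went from 163 to 10.51 CPM, Peg10, a paternally expressed imprinted gene, from 175 to 17.7, and Hmga1, a chromatin protein of growing cells, from 116 to 14.5. For these 3 the other ectoderm went from 119 to 13.05, from 114 to 15.1 and from 101 to 14.2 CPM. Hmga1 was also low in the second E9.5 library. In 129_E9.5 it stood at 10.48 CPM in these cells and at 9.80 in the other ectoderm. Whether the differences of Hmga1 and Peg10 belong to stage or to library B6_E9.5 was not tested. Whether any stage difference is larger in the cells without the 3 genes was not tested.

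**Figure D5:**
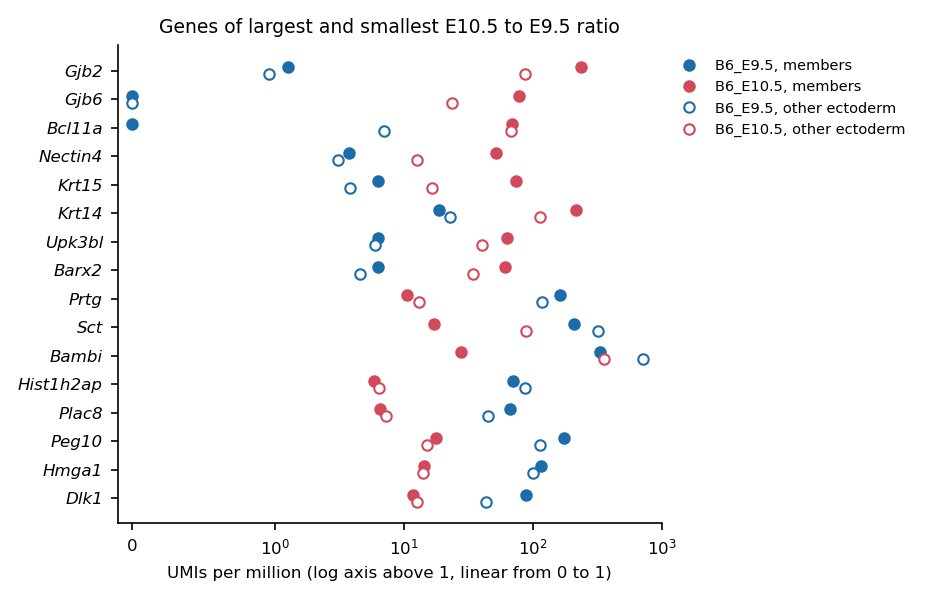
Levels in CPM at E9.5 and E10.5 of strain c57bl6.J for the 8 genes of largest and the 8 of smallest ratio in the cells without the 3 genes (filled), with the other ectoderm of the same library (open). Gjb6 and Bcl11a are at 0 in the filled E9.5 sums.

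Between strains at E9.5, 122 of 3515 genes (3.47%) were at least 2-fold higher in 129_E9.5 than in B6_E9.5 within these cells and 176 (5.01%) at least 2-fold lower. Depth differed too, with medians of 6292.5 and 9371.5 UMIs, and on cells thinned to 5000 UMIs 225 of 3626 genes were higher and 243 lower. Erythroid genes were lower in 4 of 5 measured, with a median log2 ratio of -1.23, and their part was not tested. Among ectodermal genes, Krt14 stood at 77.8 against 18.8 CPM and Krt5 was also higher, and Tfap2b stood at 109 against 50.1. Trp63, the master factor of stratified epithelium, was lower (70.4 against 182 CPM). In the other ectoderm Krt14 stood at 48.4 against 22.6 CPM, Tfap2b at 31.8 against 14.99 and Trp63 at 110 against 242. Krt5, Krt14, Tfap2b, Wnt3 and Wnt7b were at least 2-fold higher, and Lin28a, Hmga1 and Peg10 lower, in the stage comparison too. Both comparisons share B6_E9.5, so strain cannot be told apart from maturity or from that library. The largest ratios belonged to genes that differed likewise in the other ectoderm: Eif3j2 stood at 59.9 against 1.25 CPM here and 61.1 against 2.23 there, Gpx6 at 79.3 against 3.76 and 74.2 against 4.04, and Rpgrip1 at 1.497 against 347 and 3.86 against 212. Spry2, an FGF feedback inhibitor, stood at 13.5 against 168 CPM here and 18.7 against 167 there.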

How the data were processed

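Single-cell RNA sequencing had been run on 3 wild-type forelimb libraries, 1 for each strain and stage. The values are UMI counts per gene and cell, as deposited by the authors with their cluster for each cell; per the submitters' processing notes, Cell Ranger 3 and mm10 were used. The matrix held 15122 genes, of which 15119 matched a symbol, and the libraries held 93029510 to 124388358 UMIs with medians of 5710 to 7623 for each cell.

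The cells and gene lists were chosen with earlier results of these data known. UMIs were summed for each library and class, leaving out En1, Wnt7a and Fgf8. Classes were compared with edgeR 4.0.16 (quasi-likelihood test, TMM factors, filterByExpr, library as a block, Benjamini-Hochberg adjustment), tested on simulated data, with DESeq2 1.42.0 as an alternative. Library is a block because both classes come from the same libraries; each group has 1 library.

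Named genes were the 12 of largest and 12 of smallest log2 difference among those called, moving one way in 3 of 3 libraries and at 20 CPM or over in the higher class, plus up to 6 called members of a list, plus the 4 ectodermal markers. For stage and strain they were the 8 largest and 8 smallest ratios. Other genes described, among them Gjb6, Gja1, Mt1, Grhl3 and Ccnb1, were chosen after their values were seen. Clustering used scanpy 1.11.5 (2000 variable genes, 30 components, 15 neighbours, Leiden resolution 0.6). Scrublet called 13, 1 and 17 cells in the whole libraries, too few to have worked, so doublets were not removed. Intervals and limits for a count of 0 (3 UMIs or cells) cover counting error only. Gene positions are from GENCODE on mm10, and promoters from RefSeq on GRCm38.p6.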

Additional observations from a re-analysis of the deposited data

Results flagged for a closer look

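Perp, the desmosome-associated marker, stood at 374 CPM in the ectoderm cells without En1, Wnt7a and Fgf8 of B6_E10.5 and at 357 in the other ectoderm, a log2 ratio of 0.070. In both E9.5 libraries it was lower in these cells, at 259 against 366 CPM (log2 ratio -0.50) in B6_E9.5 and 460 against 474 (-0.04) in 129_E9.5. It was singled out because the direction differed between stages; the difference was not tested, each stage and strain having 1 library.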

How the results depend on the processing

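Against the whole ectoderm, DESeq2 called 34 genes higher and 45 lower, and cells of at least 10000 UMIs gave 41 and 46. Without clusters 4 and 11, 93 were higher. Without the replicate block, 0 were higher and 1 lower in edgeR (118 and 175 at an unadjusted p under 0.05), and against the limb faces 0 and 0 (73 and 33 unadjusted). Leaving out 1 library gave 56 to 146 higher and 91 to 211 lower, and against the limb faces 20 to 65 and 11 to 43, with 30 lower without B6_E9.5 and the fewest without B6_E10.5.

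Against the limb faces, DESeq2 called 2 and 1, classes on thinned cells 11 and 6, thinned cells with raw classes 20 and 13, and cells of at least 10000 UMIs 15 and 5. Leaving out cells with mesenchyme markers gave 31 lower, leaving out the periderm-like cluster 40 higher, and leaving out clusters 4 and 11 gave 9 and 8. The alternatives without clusters and the thinned cells with raw classes were chosen after seeing the data. Among cells of at least 10000 UMIs the log2 difference from the whole ectoderm reversed for Crabp1 (0.28), Krt14 (-0.39) and Wnt7b (-0.025), and with thinned classes that of Msx1 from the limb faces did (-0.028). Of the values of 61 named genes under all alternatives, 665 kept direction and call, 168 lost the call, 1 gained it and 3 reversed; against the limb faces the 41 genes gave 333, 237, 1 and 1. Using totals in place of TMM factors, no filter on low counts, and dropping Scrublet calls kept both comparisons' counts within 1.5 times. The cause of these differences was not tested.

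The share of cells without the 3 genes was 23.2% in B6_E9.5 on thinned cells, 13.2% at 2000 UMIs and over and 6.67% at 10000 and over; in B6_E10.5 it was 46.0%, 40.1% and 19.2%, and in 129_E9.5 25.1%, 23.5% and 9.62%. At 100 CPM and over, 41 genes were higher and 45 lower by stage, and 43 and 72 by strain; on thinned cells 225 were higher by strain. The highest share in a cluster was 39.3% at resolution 0.3, where the lowest was 4.78%, and 40.8% with no centring.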
